A study of Homo sapiens with 8 samples.

Results

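The G1/S and DNA replication genes are a set of 35 genes that act at the passage from G1 into S phase and at the replication fork, of 63677 genes in each count table. They were chosen by symbol from the E2F, origin licensing, fork and deoxynucleotide genes. No cut on their values was used, but earlier results of these data were known. All 35 were found, and all 35 passed the filter on low counts in every comparison. Their transcripts were measured by RNA sequencing in the human cell lines DND-41 and MOLT-4, both established from T-cell acute lymphoblastic leukaemia (T-ALL). Each line received 100 nM ACBI-1 or the solvent DMSO, and total RNA was collected at 24 h. ACBI-1 degrades SMARCA2 and SMARCA4, the motor proteins of BAF chromatin remodellers, along with PBRM1. It acts on the proteins, so transcript counts do not check the degradation. Each of the 4 groups held 2 libraries numbered 1 and 2, and the labels do not say whether they came from separate cultures. The p-values therefore rest on library-to-library spread alone, part or all of which may be technical.

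In late G1, cyclin E with CDK2 releases E2F factors from the retinoblastoma protein, and E2F then drives genes of DNA synthesis. Origins are licensed when ORC, CDC6 and CDT1 load the MCM2 to MCM7 helicase ring onto DNA. CDC45 and the GINS complex switch the ring on, and polymerases, held by the PCNA clamp that the RFC loader places, copy the strands. Proliferating leukaemia cells keep these genes active, and their transcripts rise and fall with the cell cycle. In bulk RNA a smaller share of cells in S phase and less RNA per cell cannot be told apart.

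The library totals ran from 21308737 to 22067644 counts, and the members together took 0.823% to 0.970% of the counts of a library. The MOLT-4 libraries of a group were close to each other (chi-square per degree of freedom 1.52 in DMSO and 2.65 in ACBI-1, against 49.4 to 50.8 between groups). In DND-41 the libraries lay together by number instead. Both libraries numbered 1 gave 5.49, both numbered 2 gave 5.09, and every other pair, including those of 1 label, gave 63.2 to 75.5. The DND-41 results below are therefore given as labelled and, separately, from the authors' deposited table. T-lineage markers were present in both lines (11 or 12 of 12 above 1 CPM in each group, none at 0). Their summed level was 7338 to 7350 CPM in MOLT-4 DMSO, 3357 to 3469 CPM in MOLT-4 ACBI-1 and 5828 to 6986 CPM in DND-41, and its part in the results was not tested. CPM relate each count to the library total after TMM scaling within its line. Myeloid and epithelial lists summed to under 0.5 CPM in every library. Of 5 B-lineage markers, 2 were above 1 CPM in DND-41 (summed 189 to 771 CPM). Nearly all of that sum was CD79A (188 to 767 CPM), while CD79B reached 3.66 CPM and MS4A1 was at 0 in every library. In MOLT-4, 1 B-lineage marker was above 1 CPM in DMSO and 0 in ACBI-1, and CD79A reached 4.37 CPM.

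In MOLT-4 the replication genes did not move as a block. E2F2, E2F8, both cyclin E genes, RFC4, RRM2, TK1, CDT1 and BRCA1 rose, while UHRF1, CDC6, MCM2, MCM7, TYMS, RFC2 and 6 others fell. Of the 35 members, 9 were higher and 12 lower at an adjusted p under 0.05 (edgeR quasi-likelihood F-test), and 14 did not pass. The median log2 fold change of the members was -0.03, beside 0.01 for all genes tested, and single members ran from -0.87 (UHRF1) to 0.88 (E2F2). Of all 14618 genes tested 58.4% were called, 28.2% higher and 30.2% lower, so the members' 21 of 35 is near the background. Against a change of at least 1.5-fold, 11.9% of all genes passed, and of the members E2F2 (adjusted p = 1.71e-08) and UHRF1 (7.77e-10) did.

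Scaling and the estimate of the spread bear on this split. With scaling by total counts the median of all genes moved from 0.00869 to 0.13, members were 20 higher and 6 lower, and all genes 5804 higher and 3031 lower. With the spread shared with the DND-41 libraries no member passed, E2F2 coming nearest (adjusted p = 0.0555) and UHRF1 at 0.146. The directions of called genes below hold under both scalings except where stated. The counts per list with total counts are given as a second split. Each list is small and was not tested as a whole, and its counts stand beside the 58.4% of all genes called.

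**Figure D1:**
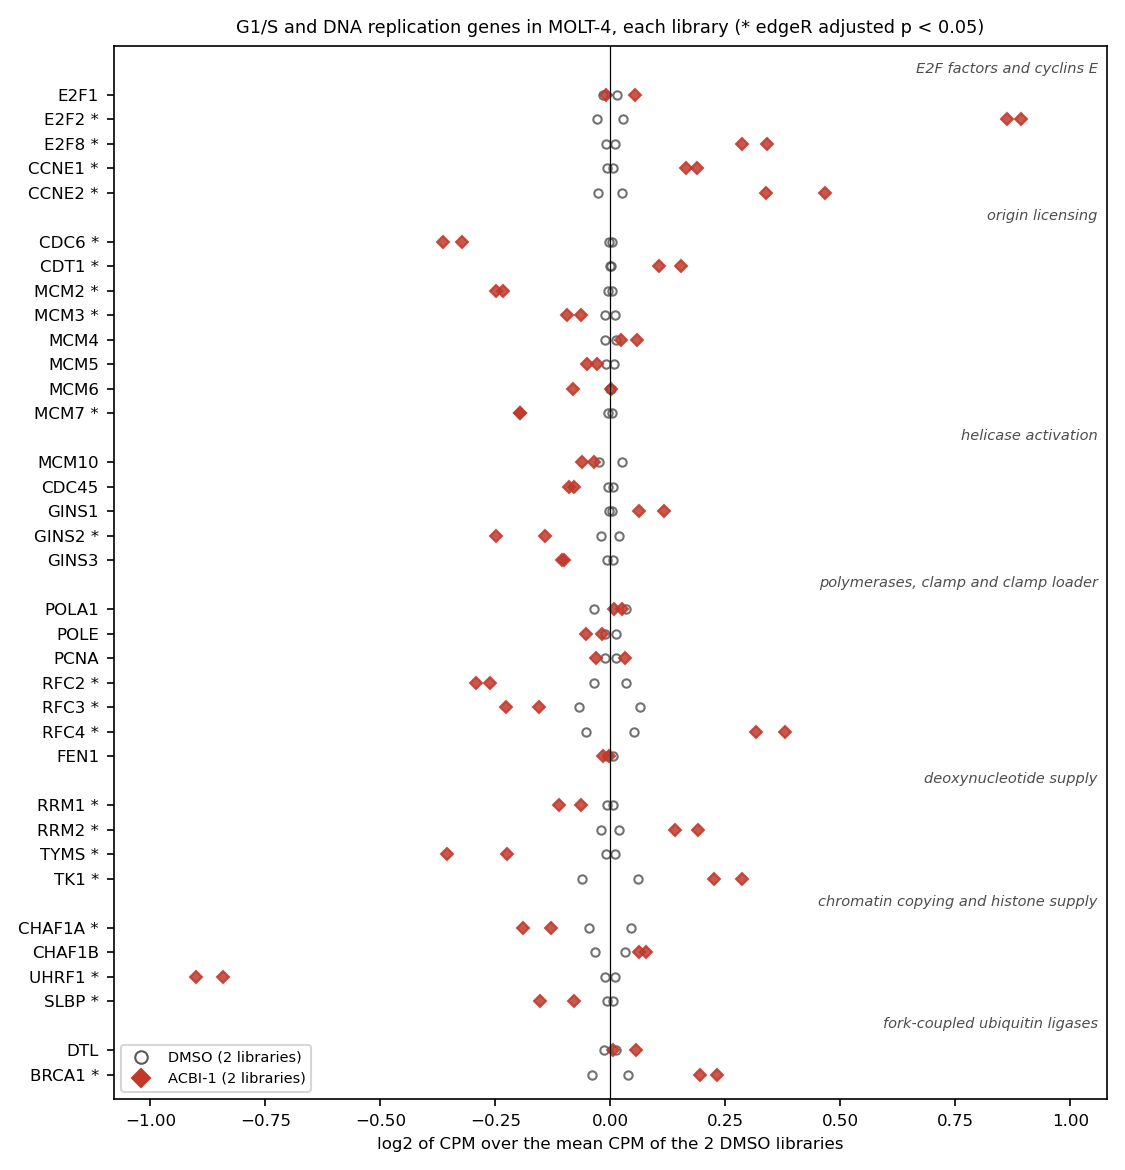
Each MOLT-4 library's CPM over the mean of both DMSO libraries, on a log2 axis, for the 35 members grouped by role, with open circles for DMSO, filled diamonds for ACBI-1 and a star for an adjusted p under 0.05. E2F2 lies far to the right and UHRF1 far to the left, and most others lie near 0. With scaling by total counts MCM3, RRM1 and SLBP, starred on the left, fall to the right of 0, as do MCM5, MCM6, MCM10, CDC45, GINS3, POLE and FEN1.

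E2F factors bind a short GC-rich motif near gene starts. Promoter windows of 300 bases, 250 before to 50 after the start, were taken from RefSeq (GRCh38.p14), which gave a window for 31 members (not for E2F8, CCNE2, MCM4 and MCM5). The letters searched, on both strands, were TTCCCGC as the first form, then TTGGCGC as the second, then TTCGCGC as the third and TTGCCGC as the last. At least 1 form was in a window of 26 of the 31 members (83.9%), against 4169 of 27305 genes (15.3%). Genes with several starts have several windows. Counted by window, the shares were 68.3% of 41 member windows and 13.0% of 35116. The G2/M and mitosis genes, a comparison list, held the letters in 5 of 23 genes (21.7%). The CCAAT letters of the NF-Y box (either strand) were in 19 of 31 members (61.3%), 20 of 23 G2/M genes (87.0%) and 39.7% of all genes. A match is a description and not a binding site. The members were listed for their part in DNA synthesis, which E2F drives, so their higher share is no independent result. The 27305 genes were not limited to expressed ones. These 60-base stretches before the start, 5′ to 3′ in the direction of the gene with the E2F-like letters in capitals, show that members that rose (E2F2, RFC4, CDT1), members that fell (UHRF1, RFC3, TYMS) and a member that did not pass (E2F1) carry like letters.
E2F2 (chr1:23531242-23531301, minus strand): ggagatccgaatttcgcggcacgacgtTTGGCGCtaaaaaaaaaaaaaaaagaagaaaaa
RFC4 (chr3:186806483-186806542, minus strand): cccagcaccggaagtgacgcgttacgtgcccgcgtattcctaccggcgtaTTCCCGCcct
CDT1 (chr16:88803729-88803788, plus strand): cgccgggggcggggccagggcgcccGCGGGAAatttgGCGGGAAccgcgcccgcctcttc
UHRF1 (chr19:4909441-4909500, plus strand): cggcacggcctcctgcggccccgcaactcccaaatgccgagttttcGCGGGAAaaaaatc
RFC3 (chr13:33818067-33818126, plus strand): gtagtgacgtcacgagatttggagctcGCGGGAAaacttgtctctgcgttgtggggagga
TYMS (chr18:657587-657646, plus strand): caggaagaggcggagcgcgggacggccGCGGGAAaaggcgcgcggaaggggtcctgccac
E2F1 (chr20:33686386-33686445, minus strand): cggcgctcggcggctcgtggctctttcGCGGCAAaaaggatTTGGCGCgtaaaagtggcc

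By direction in MOLT-4, 6 of 7 members that rose, 11 of 12 that fell and 9 of 12 that did not pass held the E2F-like letters in a window. The letters were thus found in members of all 3 kinds.

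Among the E2F factors and cyclins E, 4 of 5 rose in MOLT-4 and 0 fell (median log2 fold change 0.31), beside 28.2% of all genes called higher. With total counts 5 rose and 0 fell. E2F2, an activating E2F factor, had 93.2 and 96.9 CPM in the DMSO libraries and 173 and 177 CPM in the ACBI-1 libraries (log2 fold change 0.88, SE 0.0411, adjusted p = 2.71e-22). Both ACBI-1 values stood well above both DMSO values. E2F8, a repressive E2F factor and itself an E2F target, had 39.5 and 40.0 CPM in DMSO and 48.5 and 50.3 CPM in ACBI-1 (0.31, SE 0.0568, adjusted p = 7.43e-06). E2F1, the activator best known from this pathway, had 140 and 143 CPM in DMSO and 146 and 140 CPM in ACBI-1. Its groups overlapped (0.02, SE 0.0401, adjusted p = 0.651), so the activating factors E2F1 and E2F2 had unlike values in the same libraries. With scaling by total counts E2F1 stood at 0.14 (adjusted p = 0.00177).

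The cyclins E switch on CDK2 at the G1/S passage. CCNE2 had 36.2 and 37.6 CPM in DMSO and 46.7 and 51.0 CPM in ACBI-1 (log2 fold change 0.40, SE 0.0596, adjusted p = 1.48e-07). CCNE1 had 42.9 and 43.3 CPM in DMSO and 49.1 and 48.3 CPM in ACBI-1 (0.18, SE 0.0559, adjusted p = 0.00632). The groups of both genes were apart, but CCNE1 no longer passed without DMSO replicate 1 (0.0761), without DMSO replicate 2 (0.0577) or by DESeq2 (0.0773). INTS8, on the strand opposite CCNE2, held 247% of the counts of CCNE2 in MOLT-4 and rose as well (0.14, adjusted p = 0.00392). The strand setting of the counting is not given, so reads of such pairs cannot be told apart with certainty.

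Of the 8 licensing genes CDC6, MCM2, MCM7 and MCM3 fell, CDT1 rose, and MCM4, MCM5 and MCM6 did not pass (median -0.06; 4 higher and 3 lower with total counts). MCM3 had the opposite sign, 0.04, with scaling by total counts. CDC6, the loader that joins ORC at the origin, had 152 and 151 CPM in DMSO and 118 and 121 CPM in ACBI-1 (log2 fold change -0.34, SE 0.0402, adjusted p = 7.54e-10). CDT1, its partner in loading, had 190 CPM in each DMSO library and 211 and 204 CPM in ACBI-1 (0.13, SE 0.0374, adjusted p = 0.00277). The loader genes thus moved in opposite directions, each without overlap of the groups. Throughout, the lack of overlap describes the libraries of a called MOLT-4 gene and adds no support to its p-value. CDT1 no longer passed without DMSO replicate 1 (0.0606), without DMSO replicate 2 (0.0727) or with low-count genes kept (0.0677).

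The 6 ring subunits, which are built into the helicase in equal number, also had unequal changes. MCM2 had 426 and 429 CPM in DMSO and 360 and 364 CPM in ACBI-1 (log2 fold change -0.24, SE 0.0346, adjusted p = 8.75e-08). MCM7 had 967 and 973 CPM in DMSO and 847 CPM in both ACBI-1 libraries (-0.20, SE 0.0340, adjusted p = 3.70e-06). For both subunits all ACBI-1 values lay below all DMSO values. MCM3 had 481 and 474 CPM in DMSO and 447 and 457 CPM in ACBI-1 (-0.08, SE 0.0345, adjusted p = 0.0482), a call that did not stand without DMSO replicate 1 (0.268), DMSO replicate 2 (0.137) or ACBI-1 replicate 1 (0.110), by DESeq2 (0.0814) or with a filter of 1 CPM in 2 libraries (0.0811). MCM4 (0.04), MCM5 (-0.04) and MCM6 (-0.04) did not pass with TMM scaling (SEs of at most 0.0359). With total counts all 3 passed as rises, MCM4 at 0.16 (adjusted p = 3.96e-05), MCM5 at 0.08 (0.0395) and MCM6 at 0.08 (0.0471). TPRA1, opposite MCM2, and AP4M1, opposite MCM7, had 7.64% and 5.18% as many counts.

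Divided by exon length (GENCODE release 29), the ring subunits in MOLT-4 DMSO had 221 (MCM7), 131 (MCM3), 89.1 (MCM4), 87.2 (MCM6), 87.2 (MCM2) and 67.5 (MCM5) CPM per kb. The length was that of the merged exons of all annotated transcripts, from 3650 bases for MCM3 to 7338 for MCM5. The order thus rests on these lengths as well as on the counts. By this measure MCM7 was highest and MCM5 lowest, and MCM2, MCM4 and MCM6 lay together. The loader CDC6 was lower, at 27.3 CPM per kb, and CDT1 stood at 56.9. In DND-41 DMSO the first was again MCM7 (201), followed by MCM3 (166), MCM6 (107), MCM2 (97.6), MCM4 (94.5) and MCM5 (80.3 CPM per kb).

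**Figure D2:**
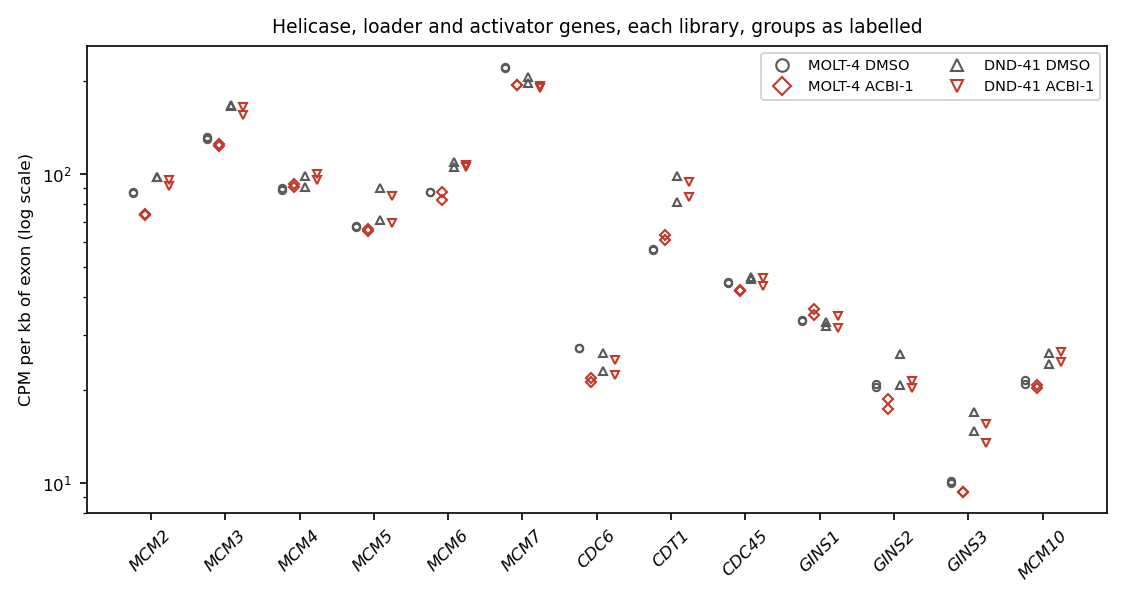
CPM per kb of exon on a log axis for the ring subunits, loaders and activators in each of the 8 libraries, with groups as labelled. MCM7 is highest in both lines (221 and 201 CPM per kb in the DMSO groups), and GINS3 is lowest (10.1 and 15.8).

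Of the 5 helicase activation genes only GINS2 passed. This subunit of the GINS complex had 68.4 and 66.6 CPM in DMSO and 61.2 and 56.8 CPM in ACBI-1 (log2 fold change -0.19, SE 0.0514, adjusted p = 0.00123). GSE1 lies opposite GINS2 with 918% as many counts, and rose (0.45). The fall of GINS2 was not called when ACBI-1 replicate 2 (0.0514) or the low-count filter (0.0571) was left out or with total counts (0.211). Its partners GINS1 (0.09, adjusted p = 0.0506) and GINS3 (-0.10, adjusted p = 0.102), the activator CDC45 (-0.08, adjusted p = 0.0765) and the origin firing factor MCM10 (-0.05, adjusted p = 0.332) did not pass. GINS1 passed as a rise in some other settings, including a filter of 1 CPM in 2 libraries (0.0247) and total counts (7.48e-06). It was also called without ACBI-1 replicate 1, which left 1 library in that group.

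Of 7 polymerase, clamp and clamp loader genes 1 rose and 2 fell (5 and 1 with total counts), all of the loader. RFC4 had 93.2 and 86.8 CPM in DMSO and 112 and 117 CPM in ACBI-1 (log2 fold change 0.35, SE 0.0449, adjusted p = 8.01e-09). RFC2 had 74.3 and 70.7 CPM in DMSO and 59.2 and 60.5 CPM in ACBI-1 (-0.28, SE 0.0499, adjusted p = 6.87e-06). RFC3 had 110 and 121 CPM in DMSO and 98.9 and 104 CPM in ACBI-1 (-0.19, SE 0.0453, adjusted p = 0.000359). So within 1 complex RFC4 rose while RFC2 and RFC3 fell. RFC3 no longer passed without DMSO replicate 2 (0.0927), ACBI-1 replicate 1 (0.0964) or the filter (0.0854), or with total counts (0.165). EIF4A2, on the strand opposite RFC4, held 346% of its counts and fell (-0.18, adjusted p = 2.43e-05).

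PCNA, the clamp itself, had 664 and 654 CPM in DMSO and 645 and 673 CPM in ACBI-1, a log2 difference of 0.00 (SE 0.0348, adjusted p = 0.991). The ACBI-1 values enclosed the DMSO values. It was 448 CPM per kb in both groups, the highest of the members with a known exon length. POLA1, the catalytic subunit of the priming polymerase (0.02, adjusted p = 0.772), POLE, that of the leading-strand polymerase (-0.03, adjusted p = 0.407), and FEN1, the flap nuclease of lagging-strand maturation (-0.01, adjusted p = 0.841), did not pass. FADS2, which overlaps FEN1 on the same strand, held 171% of the counts of FEN1 and rose (0.85, adjusted p = 5.43e-24). With total counts all 4 were positive and passed, POLA1 at 0.14 (adjusted p = 0.00566), PCNA at 0.12 (0.00190), FEN1 at 0.11 (0.00861) and POLE at 0.08 (0.0316).

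All 4 deoxynucleotide supply genes were called, 2 in each direction (2 higher and 1 lower with total counts), beside 58.4% of all genes. TYMS, thymidylate synthase of the de novo route, had 238 and 241 CPM in DMSO and 205 and 188 CPM in ACBI-1 (log2 fold change -0.29, SE 0.0392, adjusted p = 2.64e-08). TK1, thymidine kinase of the salvage route, had 50.2 and 54.7 CPM in DMSO and 64.0 and 61.4 CPM in ACBI-1 (0.26, SE 0.0536, adjusted p = 7.06e-05). The 2 sources of thymidine phosphate thus moved apart at the transcript level, with groups that did not overlap for either gene. TK1 did not pass without the low-count filter (0.0604). ENOSF1, opposite TYMS, held 26.8% of its counts and did not pass (0.05, adjusted p = 0.438).

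Ribonucleotide reductase, which makes all deoxynucleotides, is built of RRM1 and RRM2. RRM2 had 470 and 457 CPM in DMSO and 511 and 529 CPM in ACBI-1 (log2 fold change 0.17, SE 0.0350, adjusted p = 8.27e-05). RRM1 had 354 and 357 CPM in DMSO and 329 and 340 CPM in ACBI-1 (-0.09, SE 0.0352, adjusted p = 0.0293), and it was at 0.03 with total counts. The groups were apart for both. RRM1 did not pass when DMSO replicate 1 (0.126), DMSO replicate 2 (0.179) or ACBI-1 replicate 1 (0.116) was left out. Nor did it pass by DESeq2 (0.0696), with low-count genes kept (0.0518) or with a filter of 1 CPM in 2 libraries (0.0503).

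Of the 4 genes of chromatin copying and histone supply 3 fell and 0 rose, beside 30.2% of all genes called lower. With total counts 1 was lower and 1 higher, and SLBP stood at 0.00327. UHRF1, which recognises hemimethylated DNA behind the fork and recruits DNMT1, had 534 and 526 CPM in DMSO and 284 and 296 CPM in ACBI-1 (log2 fold change -0.87, SE 0.0355, adjusted p = 1.65e-24). This was the largest change among the 35 members after that of E2F2, in the other direction. CHAF1A, the large subunit of the histone chaperone CAF-1, had 192 and 180 CPM in DMSO and 170 and 163 CPM in ACBI-1 (-0.16, SE 0.0395, adjusted p = 0.000615). SLBP, which binds the stem-loop of histone mRNAs, had 223 and 221 CPM in DMSO and 200 and 210 CPM in ACBI-1 (-0.12, SE 0.0375, adjusted p = 0.00745). In these genes too every ACBI-1 value lay below both DMSO values.

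CHAF1B, the partner of CHAF1A in CAF-1, did not pass (0.07, adjusted p = 0.152), but passed with total counts (0.19, adjusted p = 8.70e-05). UBXN6, opposite CHAF1A, held 42.0% of its counts, and MORC3, on the same strand as CHAF1B, held 38.4%. CHAF1A was not called without DMSO replicate 1 (0.0872), ACBI-1 replicate 2 (0.0518) or the low-count filter (0.0658), or with total counts (0.382). SLBP was not called without DMSO replicate 1 (0.0908), DMSO replicate 2 (0.0595) or ACBI-1 replicate 1 (0.0781), or with low-count genes kept (0.0593).

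The last pair are parts of ubiquitin ligases. BRCA1, which also acts in repair of stalled forks, had 120 and 114 CPM in DMSO and 138 and 134 CPM in ACBI-1 (log2 fold change 0.21, SE 0.0416, adjusted p = 2.46e-05). Its groups did not overlap. DTL, which marks CDT1 for destruction at PCNA on DNA, did not pass (0.03, adjusted p = 0.498), but passed with total counts (0.15, adjusted p = 0.000574).

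The calls of 12 members held in the scaling, filter, DESeq2, replicate block and left-out-library alternatives. They were E2F2, E2F8, CCNE2, RFC4, RRM2 and BRCA1, which rose, and CDC6, MCM2, MCM7, RFC2, TYMS and UHRF1, which fell. The exceptions were the 1.5-fold test, passed by E2F2 and UHRF1, and the shared spread, passed by none.

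Other genes of the pathway, 90 in 7 lists, were counted beside the members. Of these 89 were tested in MOLT-4, with 22 higher, 31 lower and 36 not passing (median 0.01). The 53 of 89 called are near the share of all 14618 genes tested, of which 58.4% were called, 28.2% higher and 30.2% lower. Among 14 other E2F, DP and pocket protein genes 4 rose and 4 fell (7 and 3 with total counts). RB1, the retinoblastoma protein itself, had 293 ± 4.94 CPM in DMSO and 199 ± 13.8 CPM in ACBI-1 (SD of 2 libraries), a log2 fold change of -0.56. The repressive factor E2F4 (-0.41) and LIN54, a subunit of the DREAM complex (-0.37), were lower as well. RB1, E2F4 and LIN54 are named for their adjusted p-values and do not stand for the direction of the list. With total counts they were the 3 that fell, and RBL2 (0.42), E2F7 (0.41) and E2F3 (0.37) were among the 7 that rose. Of 9 other kinase and cyclin genes 2 rose and 4 fell (2 and 1). CDC7, the kinase that fires origins, rose by 0.54 (SE 0.0489), CKS1B, which binds cyclin-dependent kinases, rose (0.21), and the CDK2 phosphatase CDC25A fell (-0.37).

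The 10 other licensing genes held 2 that rose and 7 that fell (median -0.26; 3 and 6 with total counts). MCMBP, a binding protein of free MCM subunits (-0.36), ORC1, the largest subunit of the origin recognition complex (-0.31), and MCM8 (-0.31) were among the lower ones. Falls outnumbered rises among these 10 genes under either scaling, but the list as a whole was not tested. Of 26 other initiation and fork genes 8 rose and 5 fell, or 16 and 4 with total counts. POLD3, a subunit of the lagging-strand polymerase (0.45), and TIMELESS, which holds the fork together (0.30), rose, and POLE3, a small subunit of the leading-strand polymerase, fell (-0.47).

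Of 10 other deoxynucleotide genes, 9 of them tested, 1 rose and 6 fell (2 and 2 with total counts). TK2, the mitochondrial thymidine kinase, had 9.38 ± 0.439 CPM in DMSO and 18.9 ± 1.13 CPM in ACBI-1 (SD of 2 libraries), a log2 fold change of 1.01, while the diphosphate kinase NME1 (-0.55) and the CTP synthase CTPS1 (-0.30) fell. Both thymidine kinases were thus higher. Of 9 other chromatin copying genes 2 rose and 4 fell (5 and 2 with total counts), with the heterochromatin protein CBX5 higher (0.37) and CDCA7 (-0.32) and the histone chaperone ASF1A (-0.30; MCM9 on the opposite strand at 29.5% of its counts) lower. Of 12 fork repair genes 3 rose and 1 fell (8 and 0 with total counts). FANCI (0.20; POLG opposite at 39.4%) and BRCA2 (0.25) rose, and the mismatch repair gene MSH6 fell (-0.19; FBXO11 opposite at 21.9%), a call lost with total counts (adjusted p = 0.0719). The comparison list of 29 G2/M and mitosis genes had 15 higher and 5 lower (median 0.10; 24 and 2 with total counts), led by the spindle checkpoint kinases BUB1 (0.73) and TTK (0.46).

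In DND-41, with the libraries as labelled, no member passed the test. Of 35 members 0 passed, 0 had an unadjusted p under 0.05, and log2 fold changes ran from -0.20 (RFC2) to 0.15 (BRCA1) with a median of -0.04. Across all 14602 genes tested 0% were called (0 genes, with 37 at an unadjusted p under 0.05, and 0 by DESeq2). The median SD of a member between libraries of 1 label was 0.123 log2 units in DND-41 and 0.0306 in MOLT-4. Correspondingly the SEs ran from 0.121 to 0.332, against 0.0340 to 0.0596 in MOLT-4. An SE in DND-41 was thus of the size of many of the changes called in MOLT-4.

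The labelled DND-41 groups did not overlap for 6 of 35 members (5 lower and 1 higher in ACBI-1), beside 16.1% of all genes tested. Values by library show the pattern by number. E2F2 had 194 and 273 CPM in the DMSO libraries numbered 1 and 2, and 212 and 266 CPM in those labelled ACBI-1. UHRF1 had 315 and 208 CPM in DMSO and 324 and 204 CPM in ACBI-1. In both genes the libraries numbered 2 stood together, above those numbered 1 for E2F2 and below them for UHRF1. CDC6 had 146 and 128 CPM in DMSO and 139 and 124 CPM in ACBI-1. TK1 had 132 and 99.4 CPM in DMSO and 131 and 93.1 CPM in ACBI-1. PCNA had 561 and 604 CPM in DMSO and 481 and 556 CPM in ACBI-1. For PCNA, unlike the other 4, the libraries overlapped by number and were lower in ACBI-1 (log2 fold change -0.17, SE 0.150). It was not called in this fit, which does not take the number into account. With the number as a block it was called (edgeR adjusted p = 0.00429), but the labels do not say what the number marks.

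**Figure D3:**
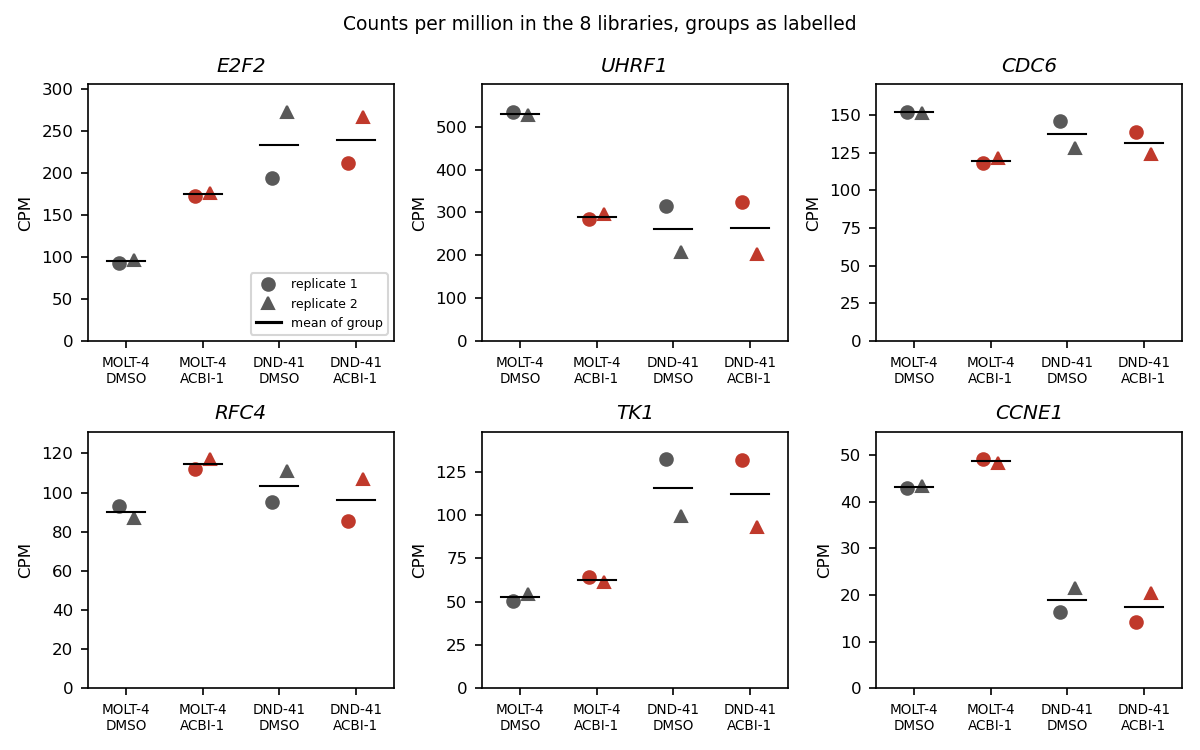
CPM of 6 members in each of the 8 libraries, with circles for replicate 1, triangles for replicate 2 and bars for the group means. In MOLT-4 the libraries of a label lie together, while in DND-41 those of a number do, as for UHRF1 at 315 and 324 CPM in the libraries numbered 1 and 208 and 204 CPM in those numbered 2.

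The difference between the lines in the response was tested as an interaction. The test used the DND-41 libraries as labelled, which lay far apart within each label. A lack of calls therefore does not show like responses. Of the 35 members 0 passed (2 at an unadjusted p under 0.05), beside 0.393% of 16047 genes. E2F2 had the largest interaction upward (0.85, SE 0.248, adjusted p = 0.311) and UHRF1 the largest downward (-0.88, SE 0.378, adjusted p = 0.511).

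The authors' deposited table for DND-41 was set against the counts. Its log2 fold changes equal those of the libraries numbered 2 over the libraries numbered 1 in 27069 of 27069 genes (within 0.001), and equal those of the labels in 0.151%. For MOLT-4 the authors' deposited table matches the labels, ACBI-1 over DMSO, for 27777 of 27777 genes. Whether the numbers in DND-41 stand for treatments cannot be told from these data, so the sign of that table is left as deposited.

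The authors' deposited table for DND-41 had 7 members positive and 5 negative at an adjusted p under 0.05 by DESeq2, beside 15.2% and 21.6% of all genes. UHRF1 was the lowest (log2 fold change -0.67, SE 0.0773, in the authors' deposited table), and E2F2 was at 0.37 (SE 0.0830). CCNE1 was the highest (0.42, SE 0.164) in the same deposited table. The authors' deposited tables called 10 members in both lines, which is 50% of the 20 called for MOLT-4 and 83.3% of the 12 called for DND-41. Over all genes the authors' deposited tables shared 3467 calls, 65.2% of those for MOLT-4 and 65.5% of those for DND-41. Of those 10, 9 had the same sign: E2F2, E2F8, RFC4, BRCA1 and CDT1 were positive and UHRF1, CDC6, RFC2 and RFC3 negative in both of the authors' deposited tables. Over all genes the authors' deposited tables had the same sign for 3288 of 3467 genes called in both (94.8%), so the members' share is near that of all genes.

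TK1 was the exception, and is singled out after its values were seen. It was at 0.24 (SE 0.0851, adjusted p = 0.0141) for MOLT-4 and at -0.48 (SE 0.0910, adjusted p = 8.95e-07) for DND-41, both from the authors' deposited tables. The difference between the tables was not tested. MCM5 (0.28, SE 0.0754) and CCNE1 were called by the authors' deposited table of DND-41 and not by that of MOLT-4, where they were at -0.05 and 0.16.

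**Figure D4:**
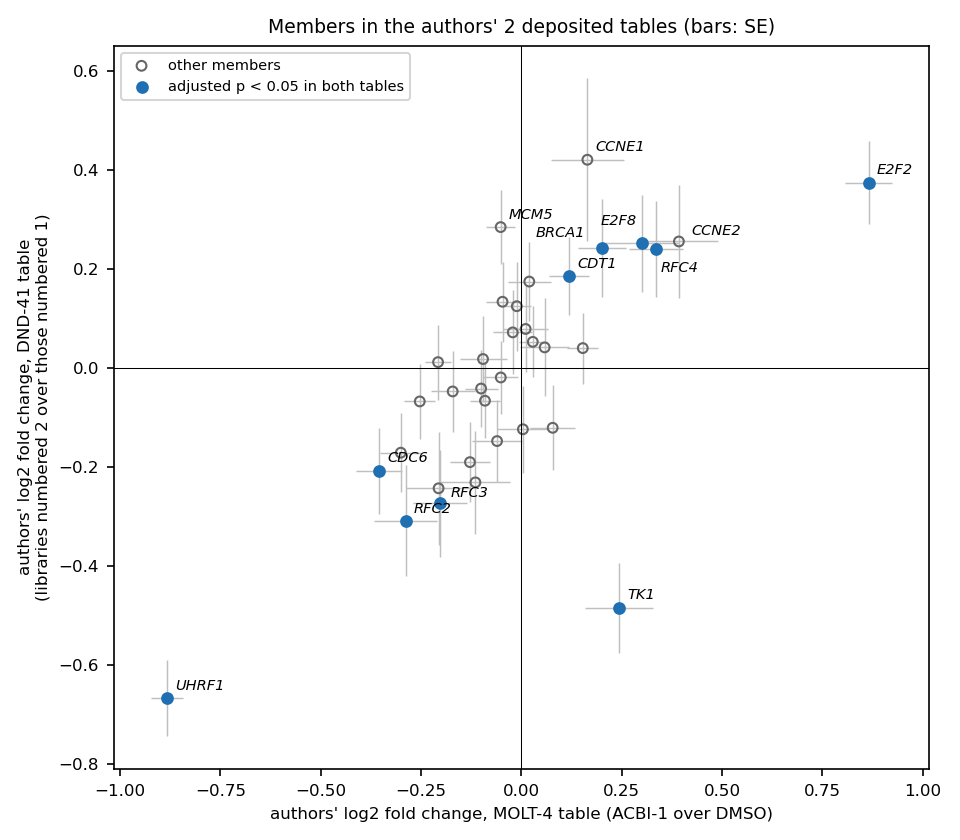
Log2 fold changes of the 35 members in the authors' 2 deposited tables, MOLT-4 on the horizontal axis and DND-41 (libraries numbered 2 over those numbered 1) on the vertical axis, with bars for the SE and filled points for an adjusted p under 0.05 in both. UHRF1 is at the lower left (-0.88 and -0.67), E2F2 at the upper right (0.87 and 0.37), and TK1 alone of the filled points has unlike signs.

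Levels of replication genes were also compared between the lines. Between the groups labelled DMSO, 9 members were higher and 7 lower in MOLT-4 (edgeR, adjusted p under 0.05), and 19 did not pass. Of all 16047 genes 39.5% were called, 20.1% higher and 19.4% lower, so the members' 16 of 35 is near the background. The lines were deposited in separate count tables, so line and table cannot be told apart. The MOLT-4 columns alone carry the word "redo", whose meaning is not given in the labels or headers. Scaling by total counts shifted the median of all genes from -0.0151 to -0.19 and gave 4 members higher and 14 lower.

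RFC3 (log2 difference 1.31, SE 0.135, adjusted p = 0.000648), CCNE1 (1.31, SE 0.193, adjusted p = 0.00276) and CHAF1B (0.60, SE 0.0811, adjusted p = 0.00198) were higher in MOLT-4. E2F2 (-1.17, SE 0.178, adjusted p = 0.00306) and E2F8 (-0.90, SE 0.134, adjusted p = 0.00282) were lower. These 5 passed with each of the 8 libraries left out in turn. DND-41 thus had more transcript of E2F2, E2F8 and less of CCNE1, and MOLT-4 treated with ACBI-1 (173 and 177 CPM of E2F2) lay below every DND-41 library (194 to 273 CPM), on scales set within each line.

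UHRF1 (1.14), RRM1 (0.39), SLBP (0.35), PCNA (0.30), FEN1 (0.26) and MCM7 (0.26) were also higher in MOLT-4, and TK1 (-1.02), CDT1 (-0.54), GINS3 (-0.53), TYMS (-0.52) and POLA1 (-0.44) lower. With total counts RRM1 (edgeR adjusted p = 0.0766), SLBP (0.0999), PCNA (0.470), FEN1 (0.550) and MCM7 (0.502) did not pass. UHRF1, TK1, CDT1, GINS3, TYMS and POLA1 did. Each of these 11 lost its call without MOLT-4 DMSO replicate 1 and without replicate 2 (adjusted p from 0.0557 to 0.207). PCNA, FEN1 and MCM7 also lost it without either DND-41 DMSO library or either MOLT-4 ACBI-1 library, and SLBP without DND-41 DMSO replicate 2 or either MOLT-4 ACBI-1 library. Without MOLT-4 DMSO replicate 1, and likewise without MOLT-4 DMSO replicate 2, 3 members were higher and 2 lower. Without DND-41 DMSO replicate 2 the count of higher members was 4, and without MOLT-4 ACBI-1 replicate 1 or 2 it was 5. UHRF1 was also not called without DND-41 DMSO replicate 2 (0.0680). Its difference was 1.47 against DND-41 DMSO replicate 2 alone and 0.87 against DND-41 DMSO replicate 1 alone, since UHRF1 itself differed between them.

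**Figure D5:**
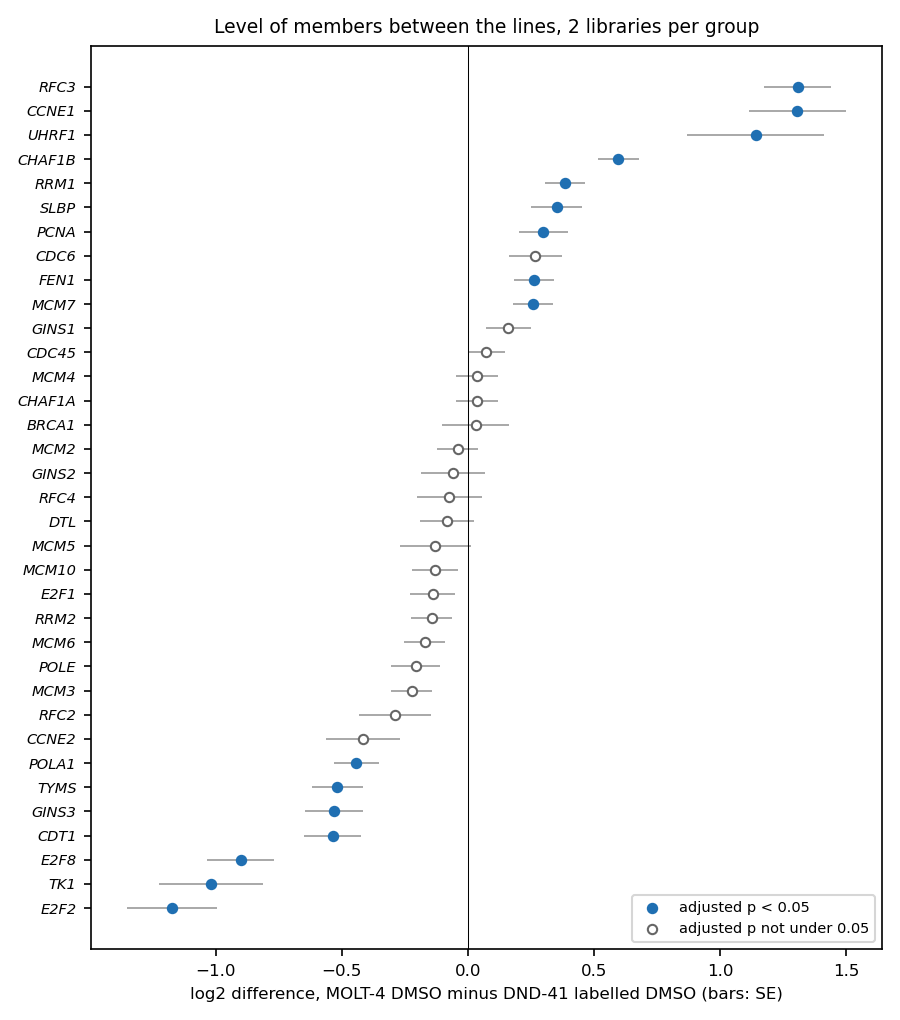
Log2 difference in level between MOLT-4 DMSO and the DND-41 libraries labelled DMSO for the 35 members, with bars for the SE and filled points for an adjusted p under 0.05. RFC3, CCNE1 and UHRF1 lie above 1 and E2F2 and TK1 below -1, while MCM2, MCM4 and MCM6 lie between -0.17 and 0.04. With scaling by total counts MCM4, CDC45, GINS1, CHAF1A and BRCA1, open points to the right of 0, fall to the left.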

How the data were processed

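For each line the authors deposited 1 table of raw counts by Ensembl identifier and 1 table of DESeq2 results. Those deposited tables hold mean normalized counts (a signal), log2 fold changes with standard errors, Wald scores, p-values and adjusted p-values. The genome build was hg19 and the tools were STAR 2.5.2a, featureCounts and DESeq2 1.12.4, per the submitters' processing notes. Per the labels' protocols, libraries were strand-specific and paired-end. The strand setting and annotation release are not given in the sources used here.

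Each line was fitted alone with edgeR 4.0.16 in R 4.3.3, using TMM scaling, the filterByExpr filter and the 2-sided quasi-likelihood F-test. The interaction and the line difference came from 1 fit of all 8 libraries. The 1.5-fold test was edgeR's glmTreat. Benjamini-Hochberg adjustment ran over all genes tested, with a threshold of 0.05. DESeq2 1.42.0 was the alternative test. The steps were tested on simulated data. The members, lists and tests were chosen with earlier results of these data known.

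Symbols came from the deposited tables. RFC2, RBL1 and CKS1B each had more than 1 identifier, and the one with the higher mean was used. Exon lengths, of the merged exons of all transcripts of a gene, came from GENCODE release 29. It is not the annotation of the counts and holds no entry for the identifier of UHRF1. Values per library are given for members with an adjusted p under 0.05 in MOLT-4 and at least 10 CPM in 1 group, and for E2F1, CCNE1, PCNA and MCM2. Up to 3 genes per other pathway list, and 2 of the comparison list, are named by smallest adjusted p in MOLT-4. Library numbers were not treated as pairs, since the labels do not say what they mark.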

Additional observations from a re-analysis of the deposited data

How the results depend on the processing

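With scaling by total counts MOLT-4 members were 20 higher and 6 lower (median 0.0843), and MCM3 (0.0406), MCM5 (0.0796), MCM6 (0.0801), POLE (0.0843), FEN1 (0.110), RRM1 (0.0310) and SLBP (0.00327) changed sign. MCM10 (0.0707), CDC45 (0.0356) and GINS3 (0.0167) also did, with no call under either scaling. Without the low-count filter 7 members were lower and 2560 genes higher. The 1.5-fold test left 1 member higher and 1 lower (896 and 841 genes), and the shared spread 0 and 0 (250 and 294 genes). The cause was not tested.

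Fitted with the replicate number as a block, DND-41 gave 5 of 35 members called, beside 1349 of 14602 genes tested. Of the 5, GINS2, PCNA and RFC2 were lower and POLE and BRCA1 higher as labelled. With the block within each line the interaction gave 14 of 35 members, near the share of all genes (5860 of 16047 tested). Among the 14 were E2F2 (0.84, edgeR adjusted p = 1.86e-22) and UHRF1 (-0.87, 7.28e-26). The line difference then gave 11 members higher and 16 lower, with 6080 genes higher and 5785 lower of 16047 tested. In MOLT-4 the block gave 10 members higher and 12 lower. Deviations of same-numbered libraries correlated at 0.914 in DND-41 and 0.00227 in MOLT-4. With 2 pairs a line and no label for the number, this is a hint from the data only.

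DESeq2 called 395 genes for the interaction. With 1 library left out, the interaction gave 0 to 49 genes and 0 members. For the line difference, leaving out 1 library gave 3 to 9 members higher and 2 to 8 lower, with 1821 to 3835 genes higher and 1470 to 3593 lower. Total counts gave 4 and 14 members, and no filter 5 higher. Chosen after seeing the data, leaving out both DND-41 libraries numbered 1 gave 11 members higher and 18 lower (6022 and 5802 genes), and leaving out both numbered 2 gave 12 and 15 (5414 and 4991). Leaving out 1 MOLT-4 library gave 7 to 10 members higher and 8 to 10 lower. In DND-41 as labelled no alternative other than the block called a gene.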
